A study of Mus musculus with 8 samples.

Results

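The genes described here encode NRF2 (Nfe2l2), enzymes of its target programme, the glutathione transferases and the main antioxidant enzymes. They were chosen by symbol: 41 genes were listed, and 37 of them were measured by 57 probe sets, out of 17097 genes and 45141 probe sets in all. Keap1, Gsta3, Prdx6 and G6pdx were not analysed here. Expression was profiled on 1 array per animal in bulge cells of mouse back epidermis, the stem cell compartment of the hair follicle. Tissue came from 4 mice labelled G9a cKO and 4 labelled G9a WT, all 15 weeks old. Both groups had received DMBA (0.25 mg/ml), a mutagenic polycyclic hydrocarbon, and TPA (0.02 mg/ml), a phorbol ester that promotes tumour growth, as 200 µl in acetone. Treatment was weekly for 6 weeks from the age of 8 weeks, and the skin was taken before tumours formed. No untreated skin was among the samples, so the levels below are those of treated skin in both genotypes. Neither the strain and sex, nor the deleted allele, the driver of its deletion and its presence in controls, is stated by the labels. The comparison asks how expression in treated skin depends on G9a, a histone H3 lysine methyltransferase.

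NRF2 is a transcription factor that KEAP1 holds at low levels by handing it to a ubiquitin ligase. Electrophiles and oxidants modify KEAP1, NRF2 then accumulates, pairs with small MAF proteins and binds antioxidant response elements in genes of glutathione synthesis, conjugation, quinone reduction and NADPH supply. In skin this programme handles reactive metabolites of carcinogens such as DMBA, many of which are conjugated to glutathione. NRF2 is mainly controlled at the protein level, so the transcript of Nfe2l2 does not measure its activity.

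The arrays were alike in scale, with medians between 5.87 and 5.95 on the log2 scale and correlations across genes from 0.994 to 0.998 between pairs; genes are not independent replicates. An Ehmt2 (G9a) probe set, 1460692_PM_at, read 5.54 to 6.44 in cKO and 8.89 to 9.29 in WT, while the other, 1426888_PM_at, read 8.39 to 8.43 and 8.40 to 8.42. Whether that one lies inside the deletion is unknown here, so it checks nothing. Bulge markers were expressed: Krt15 averaged 12.35 in cKO and 12.26 in WT, Cd34 10.45 and 10.54, Lgr5 11.01 and 11.04, and none of the 14 markers listed was dim. Here dim means among the 40% of probe sets with the lowest mean, that is at or under 5.23. Dim were 11 of 12 macrophage, 5 of 6 endothelial, 5 of 10 fibroblast, 5 of 5 adipocyte, 4 of 7 T cell and Langerhans cell, 2 of 5 melanocyte and 4 of 8 measured sebaceous gland markers. The sebaceous gland list had array means between 5.62 and 5.78 in cKO and between 5.60 and 5.83 in WT. None of 9 infundibular and interfollicular markers (array means 8.64 to 9.02) and none of 3 erythrocyte markers (8.11 to 8.44) was dim. Being above the dim level thus does not by itself tell bulge cells from other keratinocytes. Of the markers of other cell types listed, Sbsn (log2 change 0.27) and Thy1 (0.57) were higher and Krtdap (-0.63) and Col1a1 (-0.91) lower past the threshold used below; the part of such cells in the results was not tested. On the first principal component WT replicate 4 was at 2.92, between the cKO arrays and the other WT arrays (10.6 or more). Among cKO arrays replicate 1 was nearest to WT, at -5.95, with the others at -9.60 or lower. Results that turn on WT replicate 4 are given without it too. That array was picked from these same values as the WT array nearest to cKO. Calls made without it can be favoured by that choice and are no separate support.

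In the G9a cKO bulge 2 of the 37 members were higher than in WT and none was lower at a limma adjusted p under 0.05, which are Mgst2, a microsomal glutathione transferase (2.45-fold), and Me1, the cytosolic malic enzyme that makes NADPH (1.38-fold). The classical NRF2 targets Nqo1, Hmox1, Gclc, Gclm, Srxn1 and Txnrd1, and Nfe2l2 itself, did not pass the threshold. The share called, 5.41%, stood beside 2.76% of all 17097 genes (1.92% higher and 0.836% lower), so the 2 calls are read gene by gene and not as a property of the group. Aldh3a1 and Gss lay between 0.05 and 0.10, a looser level reached by 4.35% of all genes. In these bulk samples a difference in cell makeup and a difference in RNA per cell cannot be told apart. The median log2 change over the 37 members was 0.02, against 0.0027 over all genes, with 21 members above 0 and 16 below. The arrays did not overlap for 5 members with cKO higher (13.5%, against 5.15% of all genes) and for 1 with cKO lower (2.70%, against 3.09%). Among the 5, Gstm2 counted only by 10.1880 in its lowest cKO array against 10.1878 in its highest WT array. Unadjusted p-values under 0.05 were found for 13 members (35.1%), 10 higher and 3 lower, against 13.7% of all genes. Among genes above the dim level the shares were 37.5% of 32 members and 15.8% of 11280 genes. For 32 of the 35 members that were not called, the 95% confidence interval of the limma fit lay within a 1.5-fold change in either direction. The exceptions were Aldh3a1, Gpx2 and Txnrd1. The 32 include the 5 dim members, whose values lie so near background that a difference could be missed.

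**Figure D1:**
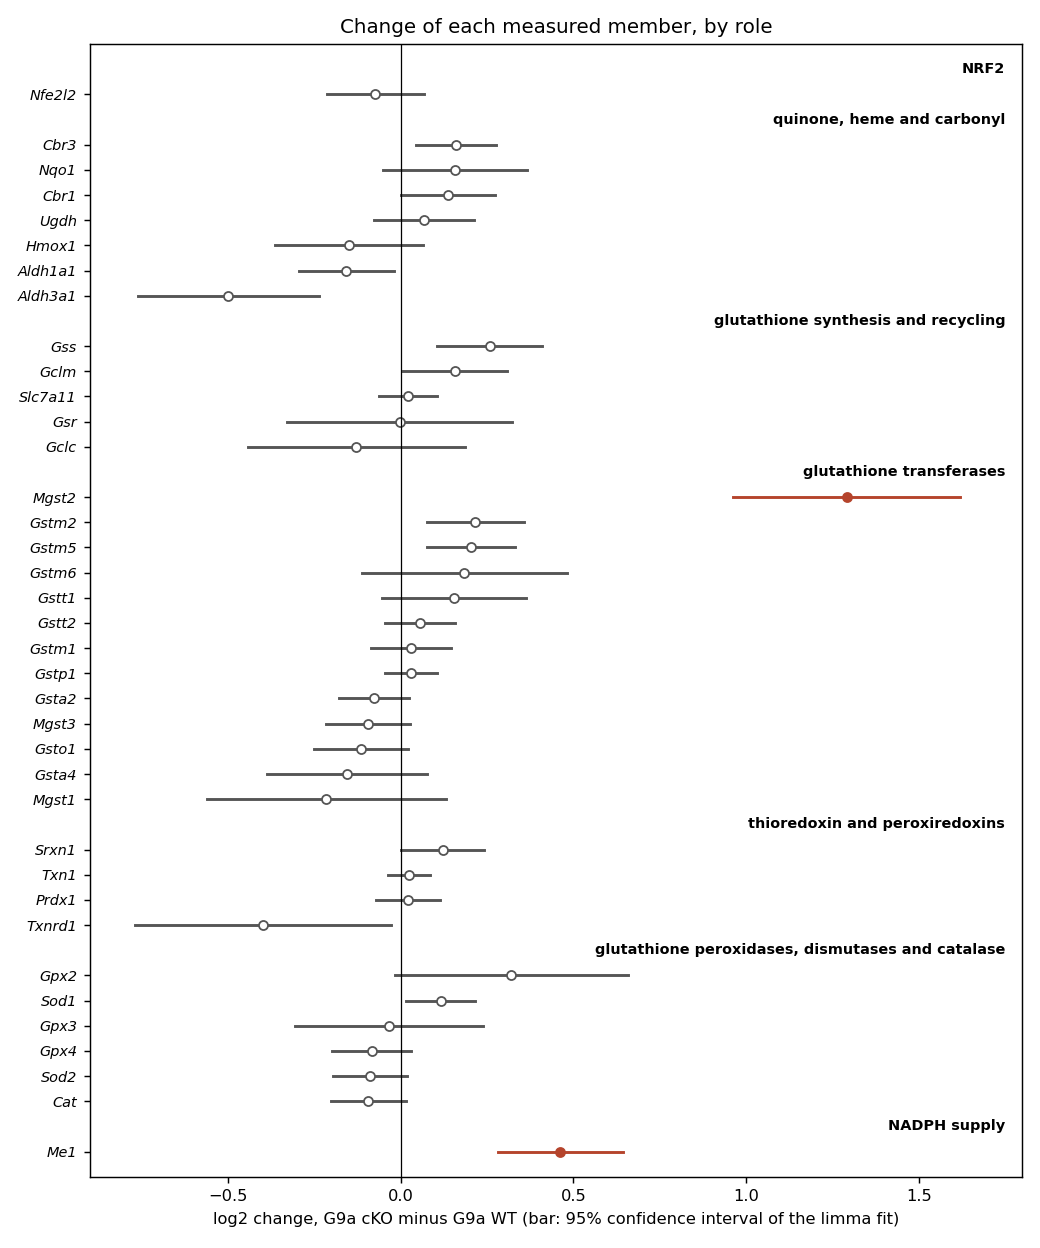
Log2 change, G9a cKO minus G9a WT (x axis), of each of the 37 measured members (y axis), grouped by role; points are limma estimates from 4 arrays per group, bars are 95% confidence intervals and filled points passed an adjusted p of 0.05. Mgst2 at 1.29 and Me1 at 0.46 are the filled points, and the lowest estimate is Aldh3a1 at -0.50.

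Nfe2l2, the gene of NRF2, was measured by 2 probe sets, and neither passed the threshold. The tested one read 7.61, 7.58, 7.50 and 7.46 in cKO replicates 1 to 4 and 7.52, 7.72, 7.63 and 7.58 in WT replicates 1 to 4 (log2). The groups overlapped over most of their range. The means were 7.54 ± 0.07 and 7.61 ± 0.09 (SD, n = 4), a log2 change of -0.07 with a 95% interval from -0.21 to 0.07 (limma adjusted p = 0.715). The second probe set overlapped as well, at a log2 change of -0.11 (limma adjusted p = 0.783 over all probe sets).

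Mgst2 encodes microsomal glutathione transferase 2, a membrane enzyme that conjugates glutathione to lipid electrophiles and to a leukotriene precursor. Its probe set, 1452592_PM_at, read 8.06, 8.75, 8.30 and 8.40 in the cKO arrays and 6.92, 7.15, 6.88 and 7.38 in the WT arrays. Every cKO array was above every WT array, and the lowest cKO value exceeded the highest WT value by more than either SD. The means were 8.37 ± 0.29 and 7.08 ± 0.23 (SD, n = 4), a log2 change of 1.29 (SE 0.15, limma adjusted p = 0.00167; exact two-sided permutation p = 0.0286, the smallest that 4 against 4 arrays allow). By size of change it ranked 21 and by p 47 among all genes. The call held in each of the 8 fits without 1 array, with log2 changes from 1.17 to 1.40.

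Neither of the other microsomal transferases among the members, Mgst1 and Mgst3, passed the threshold, and their differences from Mgst2 were not tested. Mgst1, the abundant microsomal transferase of the endoplasmic reticulum and outer mitochondrial membrane, read 8.11, 8.02, 8.67 and 8.16 in cKO and 8.69, 8.35, 8.13 and 8.64 in WT, with both groups spread over the same range (log2 change -0.22, 95% interval -0.56 to 0.13, limma adjusted p = 0.634). Mgst3 averaged 8.30 ± 0.07 and 8.39 ± 0.05 (SD, n = 4), with a log2 change of -0.09 (limma adjusted p = 0.522). The measured genes that flank Mgst2 in the RefSeq order, 5031434O11Rik and Setd7 on one side and Foxo1 and Gm30173 on the other, had log2 changes of 0.03, 0.03, -0.08 and 0.01, none of them past the threshold and Gm30173 dim; these neighbours were looked up after the result for Mgst2 was known. Mgst2 was measured by a single probe set.

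Me1 encodes malic enzyme, which turns malate into pyruvate and yields NADPH for glutathione and thioredoxin reduction and for lipid synthesis. Probe set 1430307_PM_a_at read 6.75, 6.86, 6.63 and 6.79 in cKO and 6.26, 6.20, 6.22 and 6.50 in WT. The groups did not overlap, and WT replicate 4 was the highest WT array by a clear step. The means were 6.76 ± 0.10 and 6.29 ± 0.14 (SD, n = 4), a log2 change of 0.46 (SE 0.08, limma adjusted p = 0.0133; exact permutation p = 0.0286). The second probe set, 1416632_PM_at, read 5.66, 5.81, 5.48 and 5.72 against 4.98, 5.07, 5.17 and 5.35, again without overlap, for a log2 change of 0.52 (limma adjusted p = 0.0171 over all probe sets, of which 1.77% were called). The call was lost narrowly without cKO replicate 2 (limma adjusted p = 0.0542) and without WT replicate 3 (limma adjusted p = 0.0522), at log2 changes of 0.43 and 0.44. The genes that flank Me1, Rwdd2a and Pgm3 on one side and Prss35 and Snap91 on the other, had log2 changes of 0.14, 0.03, -0.01 and 0.13 and did not pass. Rwdd2a, Prss35 and Snap91 were dim, so near background that a difference could be missed.

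**Figure D2:**
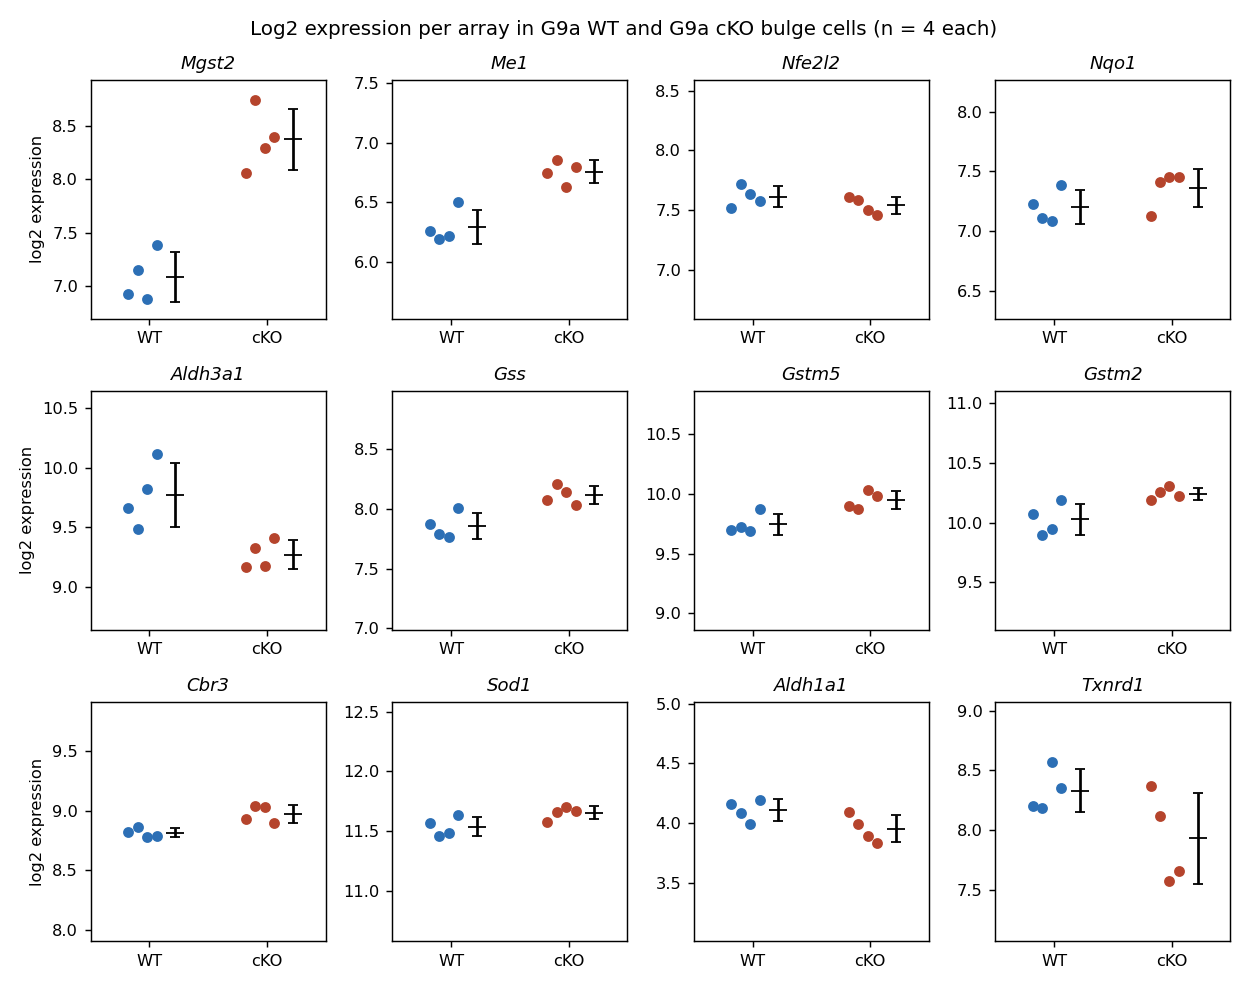
Log2 expression (y axis) of 12 members in 4 G9a WT arrays (blue) and 4 G9a cKO arrays (red), with arrays of a group in order of replicate number from left to right and the mean ± SD in black beside them; each panel has its own y axis, which does not start at 0. Mgst2, Me1, Gss, Gstm2 and Cbr3 lie higher in all cKO arrays and Aldh3a1 lies lower, while Nfe2l2, Nqo1, Gstm5, Sod1, Aldh1a1 and Txnrd1 overlap. The lowest cKO array of Gstm2 is almost level with WT replicate 4.

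A list of 19 measured immediate early genes, transcribed at once after mitogens or stress such as cell isolation, was low in the cKO arrays. Its mean deviation was -0.11, -0.08, -0.23 and -0.27 in the cKO arrays and 0.29, 0.35, 0.20 and -0.16 in the WT arrays, so WT replicate 4 lay among the cKO arrays. All 19 genes were below 0, 16 with an unadjusted p under 0.05 (84.2%, against 13.7% of all genes), and limma called none over all genes. With this list mean as a covariate the log2 change of Mgst2 was 1.11 (limma adjusted p = 0.0808, where its alternatives ran from 0.000762 to 0.0808) and that of Me1 0.31 (limma adjusted p = 0.354, alternatives from 0.00320 to 0.354). In that fit no member was called higher, and 62 of all genes (0.363%) were called. Aldh3a1 was called lower there, at a log2 change of -0.85 (limma adjusted p = 0.0213, alternatives from 0.0213 to 0.158). Apart from WT replicate 4 the list mean separated the genotypes, so the parts of the list and of the genotype cannot be told apart in this fit.

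The promoters of the called members are shown because antioxidant response elements are the DNA sites through which NRF2 acts. Windows of 300 bases, from 250 before to 50 after each RefSeq start site (GRCm38.p6), were searched on both strands for the core TGACNNNGC. It was in 12.4% of all 32851 windows and in 10 of 42 windows of the 31 measured members that matched by symbol. Me1 held TGACTCAGC on the gene strand, beginning 6 bases before the start site; its first letters, TGACTCA, are also the site of AP-1, the factor family that TPA activates. Mgst2 held no core in this window, but held TGACTCA beginning 52 bases before its start site. This heptamer was searched for after the core. It was in 5.2% of all windows and in 7 of the 42 windows of measured members (16.7%). Prdx1, which was not called, held the same TGACTCAGC as Me1, on the opposite strand. A match is a description of letters and not a site shown to be bound. The windows are given 5′ to 3′ on the gene strand, with the core of Me1 and the heptamer of Mgst2 in capitals, Me1 at chr9:86695865-86696164 on the minus strand and Mgst2 at chr3:51660929-51661228 on the plus strand.
Me1: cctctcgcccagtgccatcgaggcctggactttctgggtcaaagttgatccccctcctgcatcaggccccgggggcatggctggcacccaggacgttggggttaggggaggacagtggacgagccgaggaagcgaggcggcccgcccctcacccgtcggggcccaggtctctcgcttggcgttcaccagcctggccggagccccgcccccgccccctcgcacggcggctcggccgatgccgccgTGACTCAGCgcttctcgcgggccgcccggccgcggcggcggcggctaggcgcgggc
Mgst2: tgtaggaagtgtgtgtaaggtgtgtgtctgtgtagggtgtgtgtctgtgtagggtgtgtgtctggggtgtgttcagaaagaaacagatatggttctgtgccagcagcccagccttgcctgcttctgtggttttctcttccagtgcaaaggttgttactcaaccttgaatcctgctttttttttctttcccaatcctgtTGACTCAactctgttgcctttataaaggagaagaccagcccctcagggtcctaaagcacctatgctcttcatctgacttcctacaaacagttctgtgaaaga

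The same core was in a window of 9 further members, of which Nfe2l2 and the 3 with the lowest p are shown for comparison as 41 bases each with the core, or its reverse complement, in capitals. They are Nfe2l2 (chr2:75704873-75704913, minus), Gstm5 (chr3:107895796-107895836, plus), Sod1 (chr16:90220690-90220730, plus) and Txnrd1 (chr10:82859098-82859138, plus). The others were Gclm, Mgst1, Prdx1, Srxn1 and Ugdh, and none of the 9 was called.
Nfe2l2: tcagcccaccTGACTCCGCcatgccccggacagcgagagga
Gstm5: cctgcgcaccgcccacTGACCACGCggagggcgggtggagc
Sod1: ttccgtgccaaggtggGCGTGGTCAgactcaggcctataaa
Txnrd1: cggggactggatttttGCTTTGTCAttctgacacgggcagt

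Among enzymes that detoxify quinones and carbonyls, no member passed the threshold, and Aldh3a1 came closest. Aldh3a1 encodes an aldehyde dehydrogenase that is also a classical target of the aryl hydrocarbon receptor, which binds polycyclic hydrocarbons. It read 9.17, 9.33, 9.18 and 9.41 in cKO and 9.66, 9.49, 9.82 and 10.12 in WT. All cKO arrays were below all WT arrays, and WT replicate 4 was the highest of all. The means were 9.27 ± 0.12 and 9.77 ± 0.27 (SD, n = 4), a log2 change of -0.50 (SE 0.12, limma adjusted p = 0.0552; exact permutation p = 0.0286). Without WT replicate 4 the log2 change was -0.38 and the limma adjusted p 0.0399; with the immediate early covariate it was larger, as given above, and it was past the threshold in 5 of 16 alternatives.

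Nqo1, the quinone reductase often used as the readout of NRF2 and, like Aldh3a1, also a target of the aryl hydrocarbon receptor, read 7.12, 7.41, 7.45 and 7.45 in cKO and 7.23, 7.11, 7.08 and 7.39 in WT. The cKO array of replicate 1 lay apart from the other cKO arrays, among the WT arrays. The log2 change was 0.16 with a 95% interval from -0.05 to 0.37 (limma adjusted p = 0.532). Hmox1, the heme-degrading oxygenase, averaged 6.73 ± 0.12 and 6.88 ± 0.19 (SD, n = 4; log2 change -0.15, limma adjusted p = 0.579). Macrophages also express Hmox1, and their marker list had array means of 4.47 to 4.56 in cKO and 4.51 to 4.81 in WT; the part of such cells was not tested.

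The carbonyl reductases lay slightly higher in cKO without passing. Cbr3 read 8.93, 9.04, 9.03 and 8.89 in cKO and 8.82, 8.86, 8.78 and 8.79 in WT, and the groups did not overlap (log2 change 0.16, 95% interval 0.05 to 0.28, limma adjusted p = 0.173). Cbr1, its neighbour and close relative, averaged 8.75 ± 0.09 and 8.62 ± 0.08 (SD, n = 4; log2 change 0.14, limma adjusted p = 0.360). Aldh1a1, a retinaldehyde dehydrogenase, was dim, at 4.09, 3.99, 3.89 and 3.83 in cKO and 4.16, 4.08, 3.99 and 4.19 in WT. Its values overlapped (log2 change -0.16, limma adjusted p = 0.278), and values this low lie close to background. Ugdh, which makes the UDP-glucuronate used in conjugation, had a log2 change of 0.07 (limma adjusted p = 0.757).

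Glutathione is built by the ligase GCL, of which Gclc encodes the catalytic and Gclm the modifier subunit, and by the synthase Gss, from cystine brought in by Slc7a11; Gsr recycles it. No gene of these 5 passed. Gss read 8.08, 8.21, 8.14 and 8.03 in cKO and 7.87, 7.79, 7.76 and 8.00 in WT. The lowest cKO array stood just above WT replicate 4 and clearly above the other WT arrays. The log2 change was 0.26 (SE 0.07, limma adjusted p = 0.0876; exact permutation p = 0.0286), and without WT replicate 4 it was 0.31 with a limma adjusted p of 0.0242 (alternatives from 0.0242 to 0.650). Gclm averaged 8.77 ± 0.06 in cKO and 8.62 ± 0.12 in WT (SD, n = 4; log2 change 0.16, limma adjusted p = 0.329). Slc7a11 was dim in both of its probe sets, the tested one between 3.62 and 3.79 in all arrays.

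Gclc and Gsr varied widely between cKO animals. Gclc read 9.20 in cKO replicate 1 and 8.57, 8.46 and 8.59 in the other cKO arrays, against 8.67, 8.86, 8.89 and 8.90 in WT. One cKO array was thus above all others, and the other cKO arrays were below all WT arrays (log2 change -0.13, 95% interval -0.44 to 0.19, limma adjusted p = 0.799). Without cKO replicate 1 the log2 change of Gclc was -0.29 (limma adjusted p = 0.0660, alternatives from 0.0660 to 0.963), so its value rests on that array. Gsr read 7.47 and 7.55 in cKO replicates 1 and 2 but 7.09 and 6.90 in replicates 3 and 4, against 7.36, 6.98, 7.29 and 7.39 in WT (log2 change -0.0023, limma adjusted p = 0.996).

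Of the 13 measured glutathione transferases, Mgst2 alone passed. Gstm5 and Gstm2, cytosolic mu class enzymes that conjugate epoxides and other electrophiles, had the next lowest p. Gstm2 read 10.19, 10.26, 10.31 and 10.22 in cKO and 10.08, 9.90, 9.94 and 10.19 in WT, with WT replicate 4 just below the lowest cKO array (log2 change 0.22, SE 0.06, limma adjusted p = 0.125). Gstm5 read 9.90, 9.87, 10.04 and 9.99 against 9.70, 9.72, 9.69 and 9.87, where again only WT replicate 4 reached the cKO values (log2 change 0.20, SE 0.06, limma adjusted p = 0.105). Without that array Gstm2 had a log2 change of 0.27 (limma adjusted p = 0.0215, alternatives from 0.0215 to 0.831) and Gstm5 one of 0.25 (limma adjusted p = 0.0249, alternatives from 0.0249 to 0.807). Gstm6 and Gstm1 had log2 changes of 0.18 and 0.03 and overlapped. These genes are close copies on chromosome 3 whose transcripts may hybridise to each other's probes, which leaves single mu class values uncertain. Further mu class genes belong to the wider pathway list described below. Of these, Gstm4 had a log2 change of 0.42 (limma adjusted p = 0.0511), Gstm7 one of 0.11 and Gstm3 one of -0.05. Without WT replicate 4 Gstm4 was at 0.49 (limma adjusted p = 0.0166, alternatives from 0.0141 to 0.617).

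None of the other transferases passed the threshold. Gstp1, the pi class enzyme that is abundant in keratinocytes and whose loss raises papilloma numbers in mice, averaged 10.93 ± 0.02 in cKO and 10.90 ± 0.04 in WT (SD, n = 4), with a 95% interval of the log2 change from -0.05 to 0.11. Gsto1 (-0.11) and Gstt1 (0.16) did not pass, with limma adjusted p of 0.469 and 0.540. Gsta2, Gsta4 and Gstt2 were dim, at 4.38, 4.76 and 4.40 on average in cKO.

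Among thioredoxin and peroxiredoxin genes Txnrd1, the cytosolic thioredoxin reductase, showed the widest spread between animals of all 37 members. It read 8.37, 8.12, 7.57 and 7.66 in cKO and 8.20, 8.19, 8.57 and 8.35 in WT. The cKO arrays of replicates 3 and 4 were low, and replicates 1 and 2 lay near or among the WT arrays (log2 change -0.40, SE 0.17, limma adjusted p = 0.320). Without cKO replicate 1 the log2 change of Txnrd1 was -0.54 (limma adjusted p = 0.0834, alternatives from 0.0834 to 0.796). Gsr, given above, was also lower in cKO replicates 3 and 4 than in 1 and 2. The mean deviation of a proliferation list split the cKO arrays in the same way, at 0.40 and 0.14 in replicates 1 and 2 and -0.32 and -0.26 in replicates 3 and 4. In the WT arrays, where that list ran -0.18, -0.30, 0.07 and 0.44, Txnrd1 was highest in replicate 3. The part of proliferation was not tested.

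Srxn1, which encodes sulfiredoxin, the enzyme that repairs overoxidised peroxiredoxins, was measured by 4 probe sets with log2 changes of 0.12, 0.16, 0.15 and 0.09, all above 0 and none past the threshold. Txn1, the thioredoxin itself, averaged 12.13 ± 0.04 in cKO and 12.10 ± 0.02 in WT (SD, n = 4), with a 95% interval of the log2 change from -0.04 to 0.09. Prdx1, a peroxiredoxin, had 2 probe sets that pointed in opposite directions, with log2 changes of 0.02 and -0.08 (limma adjusted p = 0.916 and 0.327, adjusted over all probe sets). Of the 14 members with more than 1 probe set, the signs were the same within 10 and differed within Gsta2, Gstm1, Prdx1 and Sod2.

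**Figure D3:**
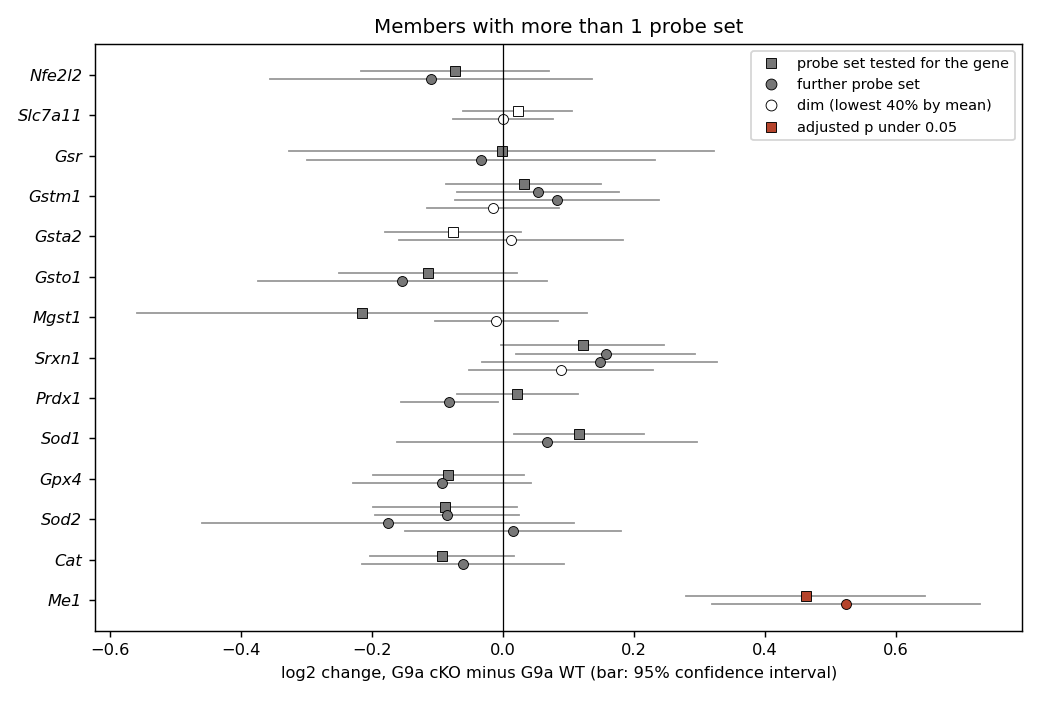
Log2 change, G9a cKO minus G9a WT (x axis), of every probe set of the 14 members with more than 1 (y axis); squares are the probe set tested for the gene, circles further ones, white symbols dim ones, red symbols those past an adjusted p of 0.05 over all probe sets, and bars 95% confidence intervals. Both Me1 probe sets are red, at 0.46 and 0.52, and no probe set of another member is.

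No enzyme that removes peroxides or superoxide passed the threshold. Sod1, the cytosolic superoxide dismutase, read 11.58, 11.66, 11.71 and 11.67 in cKO and 11.57, 11.46, 11.49 and 11.64 in WT. The cKO arrays lay mostly above, with overlap from WT replicate 4 (log2 change 0.12, 95% interval 0.02 to 0.22, limma adjusted p = 0.270). Sod2, the mitochondrial dismutase, Cat, the catalase, and Gpx4, the peroxidase that protects membrane lipids, had log2 changes of -0.09, -0.09 and -0.08 and did not pass. Gpx2, an epithelial peroxidase and NRF2 target, read 7.93, 7.91, 7.44 and 7.74 against 7.05, 7.57, 7.75 and 7.35, with overlap (log2 change 0.32, 95% interval -0.02 to 0.66, limma adjusted p = 0.395). Gpx3, the secreted peroxidase, had a log2 change of -0.03 (limma adjusted p = 0.959).

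**Figure D4:**
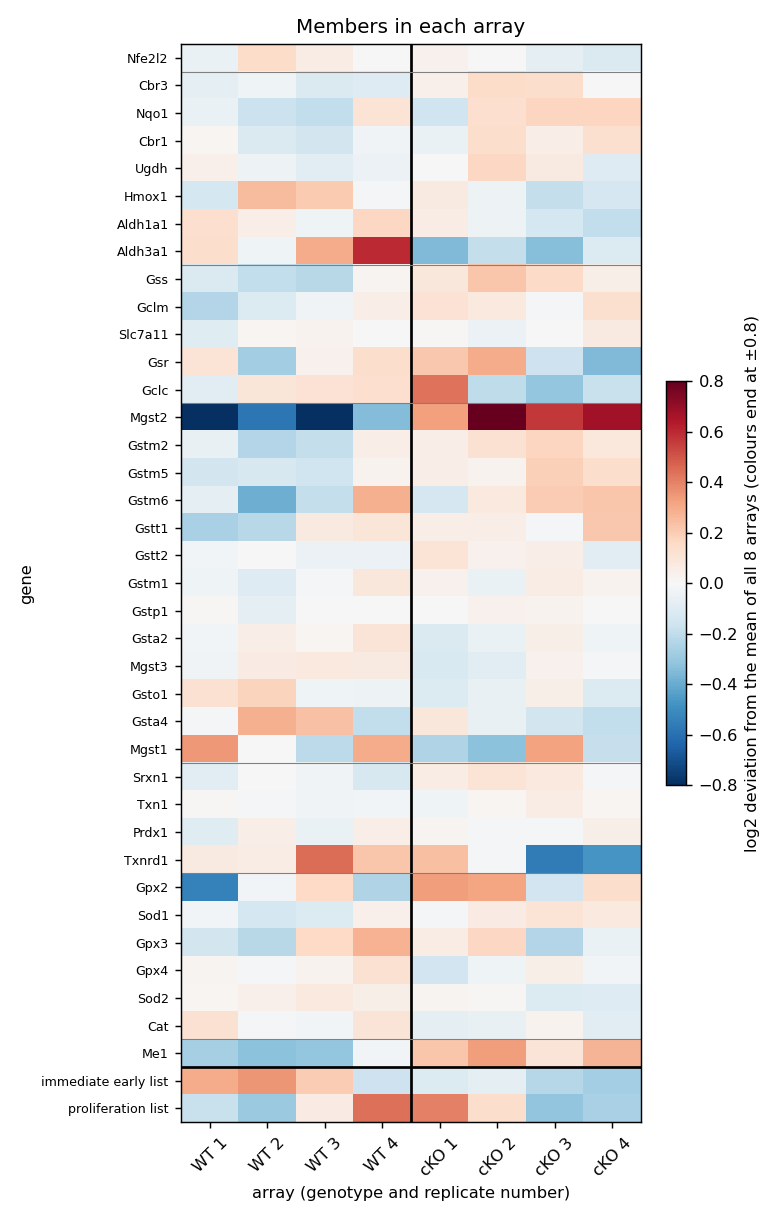
Log2 deviation of each of the 37 members from its mean over all 8 arrays (colour, ending at ±0.8), with arrays in columns, WT left of the line, members in rows by role, and the mean deviations of the immediate early and proliferation lists in the bottom rows. Mgst2 and Me1 separate the genotypes, whereas Txnrd1, Gclc and Gsr vary within the cKO group; in the immediate early row WT replicate 4 is at -0.16, among the cKO arrays.

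A wider list held 99 other genes of the pathway, of which 86 were measured. At an adjusted p under 0.05, 3 were higher and none lower, against the 2.76% called over all genes, and the median log2 change was 0.01. The 3 genes were Gstk1, the mitochondrial and peroxisomal kappa class transferase (1.30-fold, limma adjusted p = 0.0372), Oxr1, an oxidation resistance gene (1.18-fold, limma adjusted p = 0.0348), and Adh7, an alcohol and retinol dehydrogenase (1.15-fold, limma adjusted p = 0.0408). Gstk1 read 9.64, 9.83, 9.81 and 9.83 in cKO and 9.36, 9.27, 9.33 and 9.64 in WT, so that WT replicate 4 was level with the lowest cKO array. These calls were narrow: each of the 3 held in 2 of the 8 fits without 1 array, and no gene of the wider list was called without cKO replicate 2, 3 or 4 or without WT replicate 3.

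No regulator or partner of NRF2 was called, and those with the lowest p lay lower in cKO. Of 14 measured, 5 had an unadjusted p under 0.05 (35.7%, against 13.7% of all genes), all lower: the repressors Bach1 and Bach2, which compete for antioxidant response elements, and the small MAF genes Mafg, Mafk and Maff. Bach1 read 8.49, 8.56, 8.63 and 8.45 in cKO and 8.99, 8.88, 8.83 and 8.64 in WT, without overlap (log2 change -0.30, SE 0.08, limma adjusted p = 0.0746). Without WT replicate 4 these 5 genes were lower past the threshold, Bach1 at -0.37 and Maff at -0.61 (limma adjusted p = 0.0117 and 0.0158), where 4.66% of all genes were called. With the immediate early covariate Bach1 was at -0.13 (limma adjusted p = 0.734), and Mafk and Maff were above 0. Of the 8 NADPH-supplying enzymes of the wider list, which does not hold Me1, none passed, and the lowest p was that of Tkt, the transketolase (log2 change -0.14, limma adjusted p = 0.296).

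Without WT replicate 4, 5 members were called higher and 1 lower. These are Mgst2, Me1, Gss, Gstm2 and Gstm5 on the one side and Aldh3a1 on the other. Members called thus went from 2 to 6 of 37, without an array that was picked from these same values. Over all genes that fit called 796 (4.66%), against 472 (2.76%) with all arrays. More calls were made among genes at large too, and the sizes of these rises were not compared by a test.

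**Figure D5:**
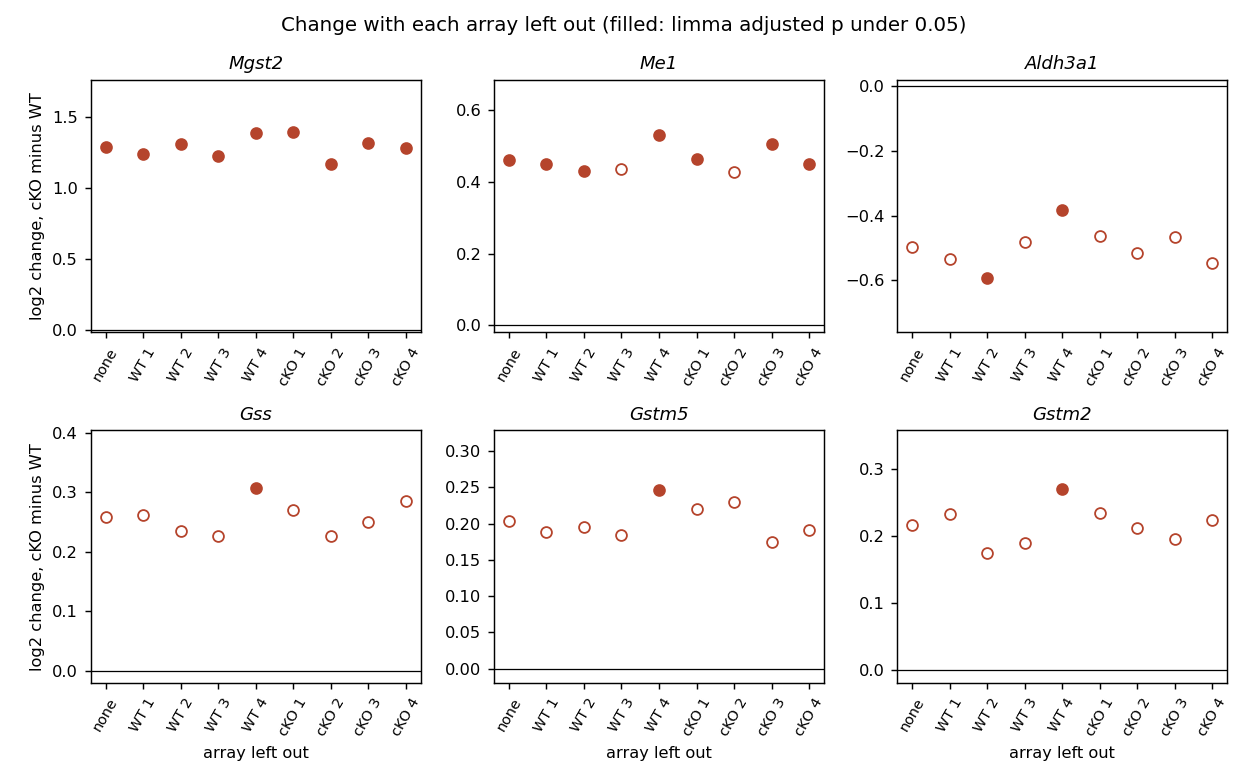
Log2 change, cKO minus WT (y axis), of 6 members with all arrays (none) and with each array left out in turn (x axis); filled points passed a limma adjusted p of 0.05, and each panel has its own y axis that includes 0. Mgst2 is filled throughout, from 1.17 to 1.40, while Gss, Gstm5 and Gstm2 are filled only without WT replicate 4.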

How the data were processed

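Per the submitters' processing notes, the authors made the deposited log2 values with RMA, which corrects background, normalizes between arrays and summarises each probe set; they name no version or settings. Deposited values ran from 3.09 to 13.1 and were used without further normalization. Per the labels' protocols, 25 ng of RNA were amplified over 17 cycles, and 8 µg of cDNA were labelled. Amplification and RMA can both compress differences, most at dim probe sets.

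The labels tied every column of the table to 1 sample. The platform annotation gave a single symbol to 28898 probe sets, several to 551, which stayed unnamed, and none to 15692. A gene was represented by its probe set with the highest mean over the 8 arrays. The 4 cKO and 4 WT arrays were compared with limma 3.58.1 (lmFit, eBayes with trend) in R 4.3.3, two-sided, without covariates or a filter. Adjusted p-values are Benjamini-Hochberg values over all 17097 genes, or over all 45141 probe sets where stated, and limma names the test of every adjusted p. The scripts were tested on simulated data. Exact permutation tests cover single genes. Precision is limited by the number of arrays. Titles name 1 animal per array, and p-values are read as covering animal-to-animal spread.

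The members and lists were chosen with earlier results of these data known. Values in every array are given for Nfe2l2, Nqo1, called members and the 8 further members with the lowest p, and for further members and pathway genes chosen after their values were seen. Of the wider pathway lists, called genes are named, or the gene with the lowest p where none was called. Some further genes of these lists were chosen after their values were seen. Promoter windows are from RefSeq (GRCm38.p6). Alternatives covered normalization, centring, dim probe sets, probe set choice, the variance model, array weights, the replicate number, an immediate early covariate, each array and the threshold.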

Additional observations from a re-analysis of the deposited data

Results flagged for a closer look

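In 84 groups of 4 arrays, over the members and the 5 named pathway genes, 5 held an array that stood apart from the other three by Dixon's criterion, and chance flags about 1 in 20 groups. Nqo1 in cKO replicate 1 read 7.12, where the other cKO arrays read 7.41 to 7.45. Gclc in WT replicate 1 read 8.67, against 8.86 to 8.90. Gstp1 in WT replicate 2 read 10.84, against 10.92 in the others. Mgst3 in WT replicate 1 read 8.32, against 8.41 to 8.42. Gstk1 in cKO replicate 1 read 9.64, against 9.81 to 9.83.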

How the results depend on the processing

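Mgst2 and Me1 kept their direction in all 16 alternatives, Mgst2 past the threshold in 15 and Me1 in 13, and scaling alternatives moved the median of all genes by under 0.01. Leaving out 1 array gave 190 to 502 higher and 67 to 294 lower genes over all genes, 1 to 5 higher and 0 to 1 lower members, and 0 to 6 higher and 0 to 6 lower wider pathway genes; the highest counts came without WT replicate 4. With the immediate early covariate 44 genes were called higher and 18 lower. Of the members 0 were called higher and 1 lower, and 0 wider pathway genes were called higher. The members' median log2 change was -0.0086 in that fit, and Nqo1 reversed to -0.034 (limma adjusted p = 0.968). The cause was not tested. Array weights gave 249 lower genes, 4 higher and 1 lower member, and 7 higher and 4 lower wider pathway genes. Quantile normalization again kept Mgst2 and Me1 higher and gave 1 lower member and 1 lower wider pathway gene. A common array median gave 1 higher wider pathway gene, and the mean of all probe sets 1 lower one. At an adjusted p under 0.10, 497 genes were higher and 247 lower. Among members Mgst2, Me1 and Gss were then higher and Aldh3a1 lower, and 7 wider pathway genes were higher and 3 lower. At 0.01 the counts were 159 higher and 44 lower genes, 1 higher member and 0 wider pathway genes. As a replicate block, the shared number gave 191 higher and 77 lower genes, 2 higher members and 0 wider pathway genes. Same-numbered deviations correlated at -0.33, -0.27, -0.53 and 0.03, and 0 cKO arrays correlated best with their own number. These values show no pairing by number, but whether same-numbered arrays share anything else is unknown here. Dim members, Slc7a11, Aldh1a1, Gsta2, Gsta4 and Gstt2, lie so near background that a difference could be missed or understated. The number of arrays, 4 per group, sets the precision of all values.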
